A study of Bos taurus with 8 samples.

Results

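The miR-199 and miR-214 family was represented by 5 bovine miRNAs, namely miR-199a-3p, miR-199a-5p, miR-199b, miR-199c and miR-214. They were chosen by name alone, as every listed miRNA of these families, and were 5 of 534 miRNAs listed and 5 of the 445 with reads in any library. Blood serum of 4 healthy lactating Holstein dairy cows was the source, and neither sample type was treated. Each cow gave 1 library of serum small RNA and 1 of exosomal small RNA, exosomes being small membrane vesicles that were precipitated from that serum. Serum RNA and exosomal RNA were extracted with kits of different makers (Norgen and Invitrogen) and from different serum volumes, and effects of sample type and of extraction cannot be told apart. Precipitated exosomes are defined here by the kit alone, and no protein marker of vesicles was measured in the files.

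A miRNA is a short RNA cut from one arm, 5p or 3p, of a hairpin precursor, and it represses messenger RNAs that pair with its seed near the 5′ end. In mammals the miR-199 and miR-214 hairpins lie inside introns of the dynamin genes, on the opposite strand, and one miR-199a hairpin is made together with miR-214 from a single long noncoding transcript (DNM3OS). They are known as miRNAs of mesenchymal cells such as fibroblasts, smooth muscle and bone-forming cells, and for roles in skeletal development and fibrosis.

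The bovine RefSeq annotation (assembly ARS-UCD2.0, used for names and neighbours only) lists 5 loci for the members, on 4 chromosomes. MIR199A-1 and MIR214 share a chromosome and both lie within DNM3 and the long noncoding RNA LOC132342463, and MIR214 overlaps MIR3120. MIR199A-2 lies within DNM2 and overlaps MIR3604-1, MIR199B lies within DNM1 and overlaps MIR3604-2, and MIR199C lies within NUP88. DNM1, DNM2 and DNM3 encode dynamins, the GTPases that pinch vesicles off membranes, and NUP88 encodes a protein of the nuclear pore. The names of miR-199b and miR-199c carry no arm in the files. By miRBase naming miR-199b was taken here as a 5p product and miR-199c as a near-copy of the 3p product, and neither could be checked against a sequence.

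Each value is in RPM, the reads of a miRNA scaled to a fixed total of miRNA reads in each library. The sera libraries held 264769 to 590162 miRNA reads and the exosome libraries 60682 to 157710, so that a share of 3 reads, taken as the smallest that can be read, was equal to between 5.08 and 11.3 RPM for sera and between 19.0 and 49.4 RPM for exosomes. The mean correlation of a library with the others of its type was 0.943 to 0.959 in sera and 0.905 to 0.925 in exosomes, lowest for exosomes of cow 1, the shallowest library. Counting intervals below are 95% intervals. They cover counting error only, since reads were amplified and carry no molecular identifiers.

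The miR-199 3p product made up 86.5% to 92.7% of the family's summed RPM in the libraries, with miR-199c left out of the sum. miR-199a-3p stood at 5060.3, 4215.8, 4592.7 and 7372.5 RPM in sera of cows 1 to 4, from 1352, 2488, 1216 and 3287 reads. In exosomes of the same cows it stood at 2966.3, 2198.8, 3231.2 and 4641.4 RPM, from 180, 282, 331 and 732 reads. Cow 4 was highest and cow 2 lowest in both sample types, and exosomes of cow 4 lay above sera of cow 2 and cow 3, so the groups overlapped. The mean was 5310 ± 1418 RPM (SD, n = 4) in sera and 3259 ± 1020 in exosomes, which ranked 38th and 39th among the listed miRNAs. miR-199c had the same value in 7 of 8 libraries and 1 read more in sera of cow 4 (7374.8 RPM from 3288 reads). These values are therefore reported as 1 measurement under the name miR-199a-3p, and which locus the reads came from cannot be told from the files.

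The 5p products and miR-214 were far lower. miR-199b stood at 254.5, 332.1, 279.5 and 367.8 RPM in sera of cows 1 to 4 and at 164.8, 210.5, 156.2 and 209.2 RPM in exosomes, from 68 to 196 and from 10 to 33 reads. Every sera library lay above every exosome library. The means were 308 ± 51.1 and 185 ± 28.7 RPM (SD, n = 4 each), and the coefficient of variation, 16.6% in sera and 15.5% in exosomes, was the lowest of the members in both sample types.

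miR-199a-5p, the partner arm of miR-199a-3p, stood at 179.7, 101.7, 166.2 and 226.5 RPM in sera, from 44 to 101 reads. In exosomes it stood at 197.8, 39.0, 48.8 and 196.6 RPM, from 12, 5, 5 and 31 reads. Exosomes of cows 1 and 4 lay within the range of sera and those of cows 2 and 3 below it, so the groups overlapped. The means were 169 ± 51.5 and 121 ± 88.6 RPM (SD, n = 4 each), and the highest exosome library exceeded the lowest by 5.07 times. With 5 reads the counting interval reached from 12.7 to 91.0 RPM in exosomes of cow 2 and from 15.8 to 114 RPM in those of cow 3, against 134 to 279 RPM in those of cow 4.

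miR-214 stood at 134.7, 122.0, 109.5 and 204.1 RPM in sera, from 29 to 91 reads, and at 98.9, 39.0, 48.8 and 95.1 RPM in exosomes, from 6, 5, 5 and 15 reads. Each sera library lay above each exosome library. The means were 143 ± 42.3 and 70.5 ± 31.0 RPM (SD, n = 4 each). In exosomes the counting intervals of all 4 libraries overlapped, with the widest from 36.3 to 215 RPM in cow 1, so differences between cows were not detectable at this depth.

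**Figure D1:**
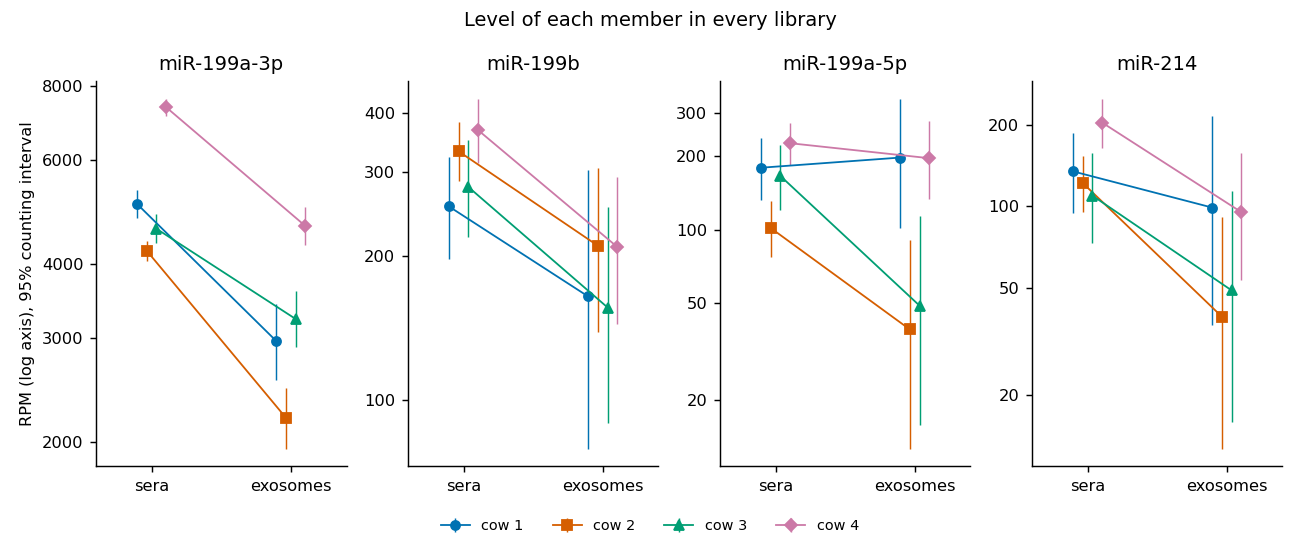
The panels plot the level in RPM on a log axis for miR-199a-3p, miR-199b, miR-199a-5p and miR-214, with a point for each library, a line joining the sera and exosome libraries of a cow and bars for the 95% counting interval. The lines fall from sera to exosomes in all 4 cows except for miR-199a-5p in cow 1, and the bars of miR-199a-5p and miR-214 are widest in exosomes, where 5 reads stand behind the lowest points.

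Variation among the 4 libraries of a sample type was set against counting noise as chi-square per degree of freedom, where 1 is expected from counting alone. With 1 library per cow and sample type, variation among cows and among libraries cannot be told apart. Any excess over 1 also grows with read number, so the value does not rank the spread of members or of sample types. Chi-square per degree of freedom was 173 in sera and 43.4 in exosomes for miR-199a-3p, and 8.45 and 7.49 for miR-199a-5p. For miR-214 it was 5.11 in sera and 1.54 in exosomes, and for miR-199b it was 2.80 and 0.465. The spread of miR-199b among exosomes was thus no wider than counting noise, and the same low read numbers limit what could be seen for it. The coefficient of variation of miR-199a-3p was 26.7% in sera and 31.3% in exosomes. That of miR-199a-5p was 30.6% and 73.5%, and that of miR-214 was 29.7% and 43.9%.

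The members kept nearly one order. Folds between neighbours are geometric means of the ratios within libraries, so they differ from ratios of the mean RPM. In sera miR-199a-3p exceeded miR-199b 17.0-fold and miR-199b exceeded miR-199a-5p 1.89-fold, each in 4 of 4 libraries and with ranges that did not overlap. Over 4 libraries an exact sign-flip test cannot go below p = 0.05, and both orders gave the smallest value it allows. miR-199a-5p and miR-214 were neighbours whose ranges overlapped, with a ratio of 1.17 and miR-199a-5p higher in 3 of 4 libraries (exact sign-flip test, p = 0.375). In exosomes miR-199a-3p exceeded miR-199b 17.1-fold, again in 4 of 4 libraries. The lower neighbours overlapped there. miR-199b was 1.98-fold above miR-199a-5p in the geometric mean and higher in 3 of 4 exosome libraries (exact sign-flip test, p = 0.375). miR-199a-5p was 1.43-fold above miR-214, higher in 2 libraries and tied at 5 reads in the other 2 (exact sign-flip test, p = 0.5).

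The comparison of sera with exosomes addresses which miRNAs of serum are also found in its exosomes, and at what share of the reads. The study states that the sera libraries may hold exosomal miRNAs too, so a whole is set against a part of it. Within cows, miR-199a-3p was higher in sera than in exosomes 1.71-fold in cow 1, 1.92-fold in cow 2, 1.42-fold in cow 3 and 1.59-fold in cow 4. The counting interval lay above 1 in each cow, with the lowest bound at 1.26 in cow 3. miR-199b was higher in sera 1.54-fold, 1.58-fold, 1.79-fold and 1.76-fold, with intervals above 1 in 3 of the 4 cows (in cow 1 the interval was 0.791 to 3.37). The folds of these miRNAs lay close together across cows.

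miR-214 was higher in sera 1.36-fold, 3.13-fold, 2.24-fold and 2.15-fold in cows 1 to 4, with intervals above 1 in cows 2 and 4. For miR-199a-5p the ratios lay on both sides of 1, but the intervals of all 4 cows overlapped, so a split of the cows is not shown. It was 2.61-fold higher in sera in cow 2 (1.06 to 8.32) and 3.41-fold in cow 3 (1.35 to 11.0), whereas the ratio was 0.908 (0.475 to 1.88) in cow 1 and 1.15 (0.764 to 1.78) in cow 4. Thus 4 of 5 members, miR-199c included, were higher in sera in 4 of 4 cows, beside 30.7% of all miRNAs tested. Sera and exosomes did not overlap for 2 of 5 members, miR-199b and miR-214, beside 11.8% of all with every sera library above every exosome library.

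**Figure D2:**
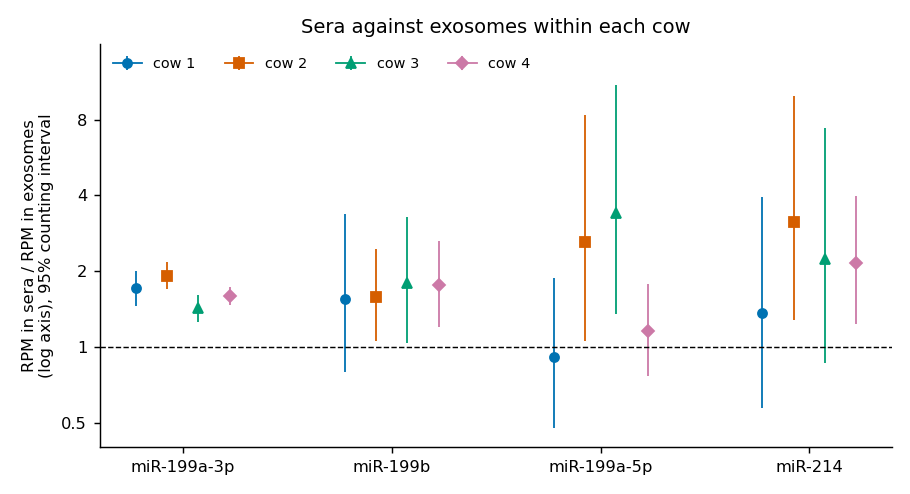
The plot gives for each member and cow the ratio of RPM in sera to RPM in exosomes on a log axis with its 95% counting interval, and a line at a ratio of 1. The miR-199a-3p points lie between 1.42 and 1.92, and those of miR-199a-5p spread from 0.908 to 3.41.

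Fold changes were tested with limma on log2(RPM + 1) over the 365 miRNAs with more than 1 RPM in at least 2 libraries of a sample type, and false discovery rates (FDR) were adjusted over all of them. The log2 fold change of sera over exosomes was 0.72 for miR-199a-3p (SE 0.25, 95% CI 0.19 to 1.25, FDR 0.0999), which is a 1.65-fold difference. It was 0.73 for miR-199b (SE 0.28, 95% CI 0.12 to 1.34, FDR 0.13) and 1.08 for miR-214 (SE 0.46, 95% CI 0.09 to 2.06, FDR 0.163). For miR-199a-5p it was 0.79 with the widest interval, which reached down to -0.41 (SE 0.56, FDR 0.402).

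No member passed the thresholds of an FDR under 0.05 and a log2 fold change over 1 or under -1 (0 of 5), beside 4.38% of the 365 miRNAs, of which 11 were higher in sera and 5 in exosomes. That split was 6 and 6 with TMM scaling, 2 and 8 with scaling to miR-93, 6 and 8 with edgeR and 3 and 13 with DESeq2. The number of members with an FDR under 0.05 was also 0 of 5 by limma, beside 6.85% of all in either direction. On the recovered reads it was 0 by edgeR, beside 4.93%, and 0 by DESeq2, beside 11.6% of the 241 miRNAs for which DESeq2 gave an FDR. At an unadjusted p under 0.05 limma called 4 of 5 members, all higher in sera, beside 22.7% of all miRNAs tested. Without cow as a block that count was 0 of 5 with TMM scaling (beside 14.8%), scaling to miR-93 (8.49%), edgeR (9.32%) and DESeq2 (6.65%). With cow as a replicate block, described below, it was 5 of 5 by limma, beside 115 of 365 miRNAs higher in sera. By edgeR with the block it was 4 of 5, beside 68 of 365.

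Sera and exosome libraries of a cow deviated together, and the comparison was therefore repeated with cow as a replicate block. The FDR by limma with the block was 1.6e-08 for miR-199a-3p and miR-199c, 0.0154 for miR-199b, 0.0315 for miR-214 and 0.0766 for miR-199a-5p. These FDR values rest on a variance pooled over the 365 miRNAs, and little on each miRNA's own spread among 4 cows. For miR-199b the SE was 0.25, although its log2 ratios within cows ran only from 0.63 to 0.84. An exact sign-flip test over 4 cows cannot go below p = 0.05. The small size of these values is therefore not evidence from the cows alone, here or for limma with the block below. With the block 4 of 5 members were higher in sera at an FDR under 0.05, beside 23.0% of the 365 miRNAs, and 1 of 5, miR-214, passed both thresholds, beside 7.95%. Those 4 members are 3 measurements, since miR-199c repeats miR-199a-3p. With edgeR and the block, miR-199a-3p (log2 fold change 0.51, FDR 0.000718) and miR-214 (0.90, FDR 0.0325) were higher in sera, and miR-199b had a log2 fold change of 0.52 with an FDR of 0.0905. These are 3 of 5 members with miR-199c, beside 15.1% of all higher in sera. Without the block, 1 of the 3 members that reached 10 reads in each library had an FDR under 0.05 when limma was limited to such miRNAs, beside 23.4% of them, and 2 of 5 did without exosomes of cow 4, beside 5.75%.

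The size of these differences depends on what RPM is relative to. An RPM value is a share, so a lower share of a miRNA in exosomes and a higher share of others there cannot be told apart, nor can fewer releasing cells and less RNA per cell. The median log2 fold change over all 365 miRNAs was 0.57, and it was 0.31 for the 128 of them that reached 10 reads in each library. Relative to the first median the members lay 0.15 (miR-199a-3p), 0.16 (miR-199b), 0.22 (miR-199a-5p) and 0.51 (miR-214) higher on the log2 scale. Their fold changes stood at the 57.5, 58.9, 62.2 and 75.1 percentiles of all miRNAs in the same order. Relative to the median of the 128 deeper miRNAs they lay 0.41, 0.42, 0.48 and 0.77 higher, at the 71.9, 75.0, 81.3 and 94.5 percentiles, although miR-199a-5p and miR-214 did not reach 10 reads in each library themselves. The distance to the median of all also moved with the pseudocount, for miR-199a-3p from 0.00091 with a pseudocount of 0.1 to 0.46 with 10 and for miR-199b from 0.014 to 0.45.

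Scaling to miR-93, a miRNA used by the study as a reference, gave log2 fold changes of 0.30 for miR-199a-3p, 0.31 for miR-199b, 0.38 for miR-199a-5p and 0.66 for miR-214, with FDR values of 0.594 to 0.844 by limma. The median of all miRNAs was 0.18 on that scale. By RPM miR-93 was itself higher in sera of each cow, although the study reports no significant difference for it. It stood at 3769, 5942, 4906 and 4551 RPM in sera of cows 1 to 4. In exosomes it stood at 3032, 4164, 3885 and 3189 RPM. The smaller fold changes on this scale are therefore relative to a miRNA with a higher share in sera. The direction was the same for every member on each scaling tried.

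**Figure D3:**
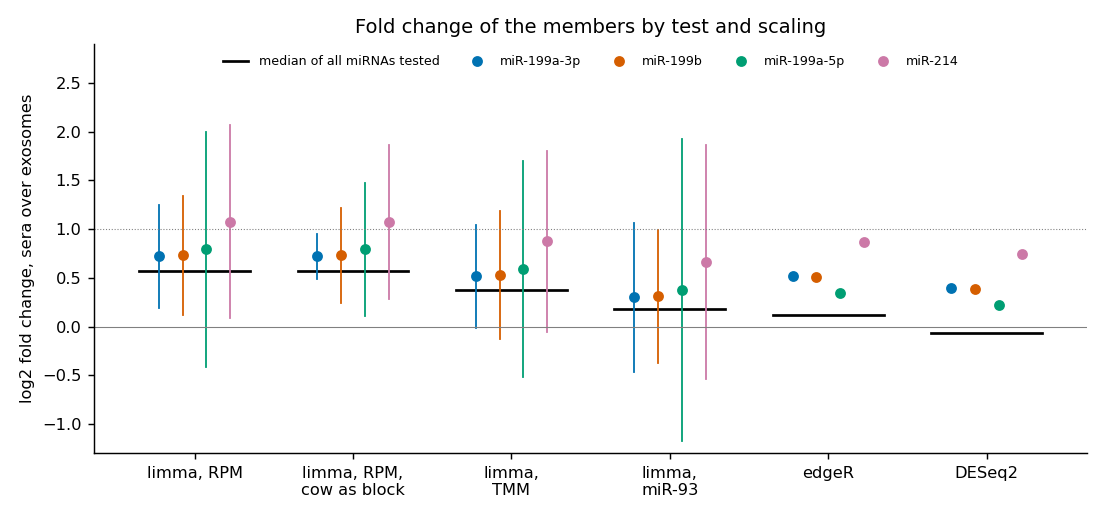
The plot gives the log2 fold change of sera over exosomes for 4 members under 6 tests and scalings, with points for the members, vertical lines for 95% confidence intervals (limma only), black bars for the median of all miRNAs tested and a dotted line at the threshold of 1. Every point lies above 0 and above the black bar of its setting, and with limma on RPM the points lie between 0.72 and 1.08 beside a median of 0.57.

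The balance between products was compared as 3 ratios, each with an exact two-sided permutation test over all 70 assignments of the libraries (smallest p 0.0286). The ratio of the 3p product to the sum of the 5p products (miR-199a-5p and miR-199b) was 11.7, 9.72, 10.3 and 12.4 in sera of cows 1 to 4 and 8.18, 8.81, 15.8 and 11.4 in exosomes. The means were 11.0 ± 1.23 and 11.0 ± 3.44 (SD, n = 4 each), and the difference in mean log2 ratio was 0.039 (exact permutation p = 0.886, adjusted 0.943). Exosomes spread more widely around a like mean, but from fewer reads of the 5p products. These were 5 to 31 reads of miR-199a-5p and 10 to 33 of miR-199b in exosomes, beside 44 to 101 and 68 to 196 in sera. The part of counting error in the wider spread was not tested.

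The ratio of miR-199b to miR-199a-5p was 1.42, 3.27, 1.68 and 1.62 in sera and 0.833, 5.40, 3.20 and 1.06 in exosomes. Cow 2 had the highest ratio in both sample types, and the 2 sample types differed by -0.070 in mean log2 ratio (exact permutation p = 0.943, adjusted 0.943). The ratio of miR-214 to miR-199a-5p, products of hairpins that share a host transcript in mammals, was 0.750, 1.20, 0.659 and 0.901 in sera. In exosomes it was 0.5, 1, 1 and 0.484, from as few as 5 reads on either side. It was higher in sera in 3 of 4 cows, with a difference of 0.29 in mean log2 ratio (exact permutation p = 0.457, adjusted 0.943). That difference was 0.107 without exosomes of cow 4 and 0.456 without exosomes of cow 2 or of cow 3.

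**Figure D4:**
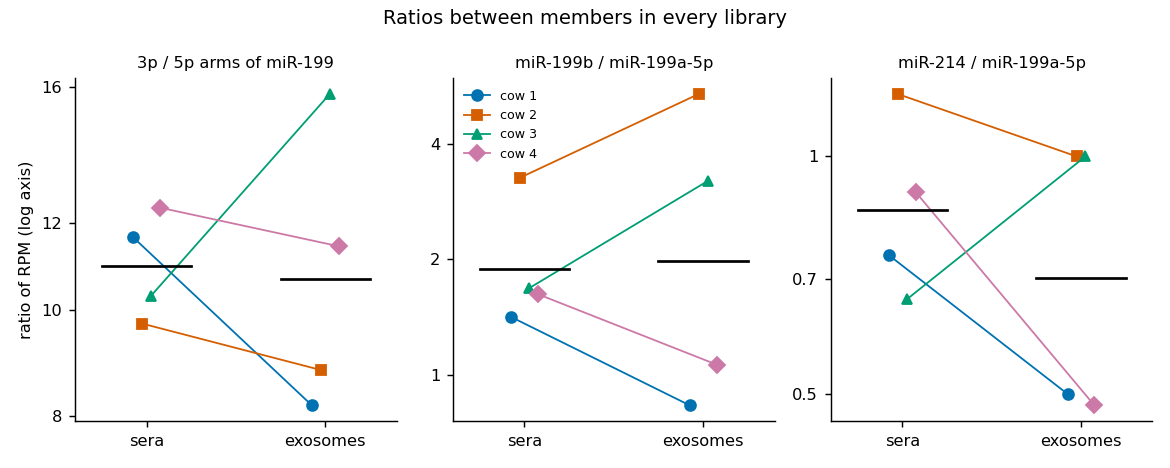
The panels plot the 3 ratios in every library by sample type on log axes, with a point for each library, a line joining the libraries of a cow and a black bar at the geometric mean. The ratio of miR-199b to miR-199a-5p is highest in cow 2 in both sample types, at 3.27 in sera and 5.40 in exosomes.

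Across the 8 libraries, which are 4 cows with 2 libraries each and share the sample type difference, the log2 levels of miR-199a-3p and miR-214 had a Pearson r of 0.891 and those of miR-199a-5p and miR-214 an r of 0.875. It was 0.736 between both arms of miR-199a, 0.714 between miR-199a-3p and miR-199b, 0.717 between miR-199b and miR-214, and 0.385 between miR-199b and miR-199a-5p. These are descriptions of 8 points.

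The likest miRNAs were sought among miRNAs that reached 10 reads in each library. For miR-199a-3p they were miR-3604 (r = 0.998), miR-27b (0.929) and miR-145 (0.919), of which miR-145 is an abundant miRNA of smooth muscle. For miR-214 they were miR-27a-3p (0.934), miR-205 (0.917) and miR-200a (0.899), and for miR-199a-5p they were miR-205 (0.950), miR-99b (0.893) and miR-141 (0.876). miR-200a, miR-141 and miR-205 are known as miRNAs of epithelium. For miR-199b they were miR-15a (0.904), miR-144 (0.895) and miR-106b (0.887), of which miR-144 is made in red cell precursors.

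miR-3604, whose hairpins overlap MIR199A-2 and MIR199B in the annotation, followed miR-199a-3p in level as well as in pattern. It was at 4255.6, 3617.7, 3912.8 and 6309.4 RPM in sera of cows 1 to 4 and at 2422.5, 1886.9, 2567.4 and 3975.7 RPM in exosomes. These are 84.1% to 85.8% of the miR-199a-3p values in sera and 79.5% to 85.8% in exosomes. Whether reads were counted by strand is not given in the sources used here. miR-199a-3p and miR-199c had 1352 reads each in sera of cow 1 and 180 each in exosomes of cow 1. Their reads were equal in every library but sera of cow 4, with 3287 and 3288. A read could thus count for more than 1 miRNA. Whether miR-3604 shared reads with miR-199a-3p was not tested, so the 2 values cannot be taken as separate measurements.

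**Figure D5:**
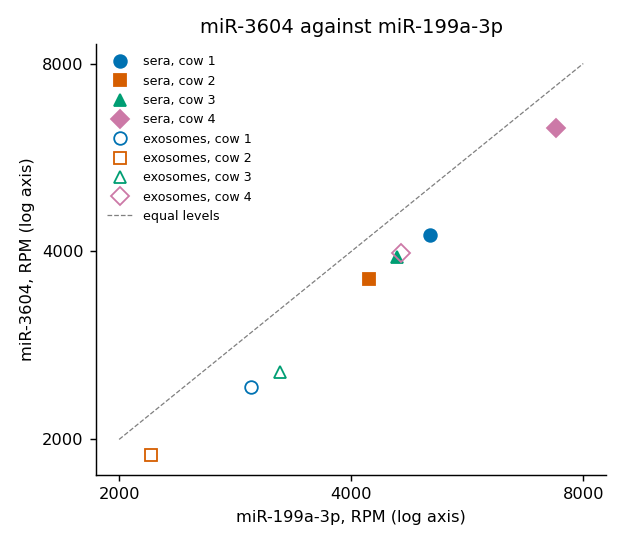
Each point is a library, with miR-199a-3p on the horizontal and miR-3604 on the vertical axis, both in RPM on log axes, filled for sera and open for exosomes. The 8 points lie at 79.5% to 85.8% of the miR-199a-3p level, below the dashed line of equal levels, and sera of cow 4 is at the top.

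A list of 16 other miRNAs known from connective tissue and smooth muscle was set beside the members. All 16 were tested, and 0 passed the thresholds in either direction by limma, 0 had an FDR under 0.05, and 15 had a positive log2 fold change, with a median of 0.66 beside 0.57 over all miRNAs. With the replicate block 8 of 16 were higher in sera and 0 in exosomes at an FDR under 0.05, beside the 23.0% given above. That share includes miRNAs of few reads, which are called less often. At an unadjusted p under 0.05, limma without the block called 83 of all 365 higher in sera. Among those with 10 reads in each library it called 43 of 128. With the block 3 of 5 red blood cell and 3 of 6 platelet and myeloid miRNAs were also higher in sera, as given below. miR-143, a miRNA of smooth muscle, stood at 35287 ± 20704 RPM in sera and 22772 ± 12645 in exosomes (SD, n = 4 each). Its log2 fold change was 0.60 (limma, FDR 0.409, and 6.5e-06 with the block).

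miR-145, made from the same transcript as miR-143, stood at 283 ± 68.0 and 168 ± 24.8 RPM, with a log2 fold change of 0.73 (limma, FDR 0.149, and 0.0217 with the block). miR-29a, which represses collagen genes, stood at 5228 ± 935 and 3350 ± 886 RPM, with a log2 fold change of 0.66 (limma, FDR 0.0882, and 2.6e-07 with the block). miR-21-5p, a miRNA raised in fibrosis, stood at 24395 ± 3662 and 24809 ± 5107 RPM, with a log2 fold change of -0.01 (limma, FDR 0.984, and 0.958 with the block). The summed level of the list ran from 102838 to 150427 RPM in sera and from 70245 to 109879 in exosomes, highest in cow 4 in both, the cow in which miR-199a-3p was highest too. A few abundant miRNAs, among them miR-143 and miR-21-5p, made up most of this sum, so it does not describe the list as a whole.

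Markers of other sources of serum miRNAs were set beside the member values. The 5 red blood cell miRNAs had sums from 180127 to 268238 RPM in sera and from 207211 to 401218 in exosomes, and none was at 0. Among them miR-144 and miR-16a passed the thresholds, both higher in sera, whereas miR-486 had a log2 fold change of -0.73 (limma, FDR 0.149, and 2.1e-05 with the block). With the block 3 of the 5 were higher in sera and 1, miR-486, in exosomes at an FDR under 0.05. The ratio of miR-451 to miR-23a, used as a sign of red cell RNA, was 3.36, 9.35, 4.27 and 4.49 in sera of cows 1 to 4 and 6.31, 21.1, 7.75 and 9.13 in exosomes. Between sample types miR-451 stood at 27207 RPM in sera and 27098 in exosomes in the mean (limma, FDR 0.997) and miR-23a had a log2 fold change of 0.99, higher in sera (limma, FDR 0.0198), so the difference in this ratio came from its denominator. The ratio was highest in cow 2 in both sample types, the cow in which miR-199a-3p and miR-199a-5p were lowest. miR-214 was lowest in cow 2 in exosomes and in cow 3 in sera. miR-199b went the other way, with cow 2 highest in exosomes (210.5 RPM) and above the mean in sera (332.1 beside 308 RPM). The part of red cell RNA in these levels was not tested.

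Platelet and myeloid miRNAs (6 tested) had sums from 46797 to 52641 RPM in sera and from 41527 to 52866 in exosomes, with none at 0. None of them passed the thresholds, and miR-126-3p had an FDR of 0.0252 with a log2 fold change of 0.80 by limma. With the block 3 of the 6 were higher in sera and 0 in exosomes at an FDR under 0.05. The 2 liver miRNAs had sums from 13.5 to 136 RPM in sera and from 16.5 to 58.6 in exosomes, and 0 of 2 passed. Of 7 muscle miRNAs 4 were tested and 0 passed. With the block 0 liver and 0 muscle miRNAs had an FDR under 0.05 by limma. The muscle sum was 23108 RPM in sera and 26301 RPM in exosomes of cow 1 and 164 to 355 RPM in the other libraries. It was mostly miR-133a, with means of 5582 RPM in sera and 6488 in exosomes. No other muscle miRNA had a mean above 174 RPM. miR-1 had at most 1 read and miR-208a at most 3 reads in a library, and miR-206 was at 0 in all. Cow 1 was also the only cow in which the ratio of miR-199a-5p was not higher in sera, with an interval of 0.475 to 1.88. The part of muscle RNA in this was not tested.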

How the data were processed

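Small RNA libraries of sera and exosomes were read as single ends on an Illumina HiSeq. Per the study's methods and the submitters' processing notes, CASAVA 1.8 served to drop reads of low quality, and the authors trimmed adaptors, aligned reads over 15 nt to bovine miRBase miRNAs with sRNAbench at default settings (its version is not given in the sources used here), each library separately, and deposited RPM values. Sample type and cow were taken from the labels. Reads were recovered from the RPM steps, with 100% of values whole within 0.06 RPM.

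The main test was limma (lmFit, eBayes with trend) on log2(RPM + 1) over 365 miRNAs with Benjamini-Hochberg adjustment. Alternatives were pseudocounts of 0.1 and 10, no filter, at least 10 reads in every library, TMM or miR-93 scaling, edgeR's quasi-likelihood test and DESeq2 on recovered reads, cow as a replicate block, identical miRNAs once, and each library left out. The fits of limma and edgeR without the block were tested on simulated data without cow effects, so the block and DESeq2 were not covered. The miRNAs changed there were neither of few reads nor abundant enough to shift RPM as a whole. The labels number the cows and by the study's methods exosomes were taken from the sera of those cows. Deviations from the group means over 128 miRNAs correlated between libraries of the same cow (r 0.740 to 0.860, mean 0.806) and not between cows (mean -0.244), so the numbers pair the samples. The 4 cows are the replicates.

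The members, lists and tests were chosen with earlier results of these data known. Every member was named, with the 3 likest miRNAs of each, and up to 4 examples of the connective tissue list. Tools were R 4.3.3, limma 3.58.1, edgeR 4.0.16, DESeq2 1.42.0, Python 3.11.15, NumPy 2.4.6, pandas 2.3.3, SciPy 1.17.1 and matplotlib 3.10.9.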

Additional observations from a re-analysis of the deposited data

Results flagged for a closer look

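Of 16 groups of 4 libraries examined for a value far from the others, 1 was marked. The ratio of miR-199b to miR-199a-5p in sera was 3.27 in cow 2 and 1.42 to 1.68 in the other cows. Chance marks about 1 group in 20, and 16 were examined.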

How the results depend on the processing

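All 92 log2 fold changes of the members over the alternatives were positive, from 0.30 to 0.91 for miR-199a-3p and miR-199c, 0.31 to 0.82 for miR-199b, 0.22 to 1.15 for miR-199a-5p and 0.66 to 1.27 for miR-214. These 92 are not separate checks of direction. A change of filter or the block cannot alter a limma fold change, and miR-199c repeats miR-199a-3p. Relative to the median of all miRNAs, miR-199a-5p turned from 0.22 higher to -0.01 without exosomes of cow 2 and -0.08 without exosomes of cow 3. With the replicate block miR-214 kept its 1.08 and passed both thresholds (limma FDR 0.0315, from the pooled variance), so 1 member passed them. The number of members with an FDR under 0.05 was 4 with the block by limma and 3 with the block by edgeR, beside 23.0% and 15.1% of all higher in sera. It was 1 with at least 10 reads in every library (miR-199b, FDR 0.0375), beside 23.4%, where miR-199a-5p and miR-214 were not tested. With libraries left out it was 0 to 2. The 2 were miR-199a-3p and miR-199c without exosomes of cow 4 (limma FDR 0.0399), beside 5.75% of all higher in sera. The log2 difference in the ratio of 3p to 5p products, 0.039, turned to -0.083 with miR-199a-5p as the only 5p product and ran from -0.089 to 0.226 with libraries left out. That of miR-199b to miR-199a-5p, -0.070, ran from -0.485 (without exosomes of cow 1) to 0.413 (without exosomes of cow 2). That of miR-214 to miR-199a-5p, 0.29, ran from 0.107 (without exosomes of cow 4) to 0.456. The cause was not tested. Values of miR-199a-5p and miR-214 in exosomes rest on 5 to 31 reads, which limits what they can show.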

Other observations

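miR-3120, whose hairpin overlaps MIR214 in the annotation, had 1, 2, 2 and 8 reads in sera of cows 1 to 4 and 0, 1, 0 and 1 reads in exosomes. Only sera of cow 4, at 17.9 RPM, held more than 3 reads, so no level in exosomes was detectable at this depth.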
